A study of Mus musculus with 12 samples.

Results

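Voltage-gated and potassium channel genes made up 79 of the 14089 genes counted in these mouse islets. They were taken by symbol alone: symbols beginning with Kcn (potassium channels and their partners), with Cacn (voltage-gated calcium channels) or with Scn and a digit (voltage-gated sodium channels), leaving out 1 inward rectifier gene and the epithelial sodium channel genes. The rule uses no measured value, but the genes were chosen with earlier results of these data known. By the protein each gene encodes, the 79 comprised 23 pore subunits of voltage-gated potassium channels, 11 accessory subunits of potassium channels, 7 two-pore potassium channels, 6 calcium-activated potassium channels and their relatives, 6 inward rectifiers, 7 calcium channel pore (α1) subunits, 4 calcium channel β subunits, 4 α2δ subunits, 1 γ subunit, 6 sodium channel pore (α) subunits, 3 sodium channel β subunits and 1 long non-coding RNA, Kcnq1ot1. The filter on low counts removed 0 of the 79 and 0 of all 14089 genes. Cacna1e, Kcnj5 and Scn1a, channel genes also known from β cells, were not among the genes counted. Of the 79, 68 had at least 1 count in every library. Their counts summed over the 12 libraries ran between 69 and 30231, so the precision differed widely between members.

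The islets came from C57BL/6J mice, were isolated after perfusion of the pancreas with collagenase and were treated for 24 hours. The groups were a cytokine mixture with ML351 (called the combination here), the cytokine mixture alone, ML351 alone at 10 µM, and vehicle, with 3 libraries in each. In the mixture were 5 ng/ml of IL-1β, 10 ng/ml of TNF-α and 100 ng/ml of IFN-γ, all of them pro-inflammatory, and ML351 inhibits an arachidonate lipoxygenase. Whole islets were sequenced, so each value is an average over β, α, δ and PP cells and over the vascular, stromal, immune and exocrine cells that remain, and in such bulk RNA fewer cells of a type and less RNA per cell cannot be told apart. Library totals were between 20208286 and 27193026 counts. Levels are given below as CPM, counts scaled to the library total with TMM factors, and, where genes are compared with each other, as CPM per kilobase of exon. Changes are log2 fold changes of edgeR with their standard errors (SE), and a gene was called at an adjusted p of at most 0.05 over all 14089 genes.

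The β cell is electrically excitable. When glucose is metabolised the membrane depolarises, voltage-gated sodium and calcium channels open in bursts of action potentials, and the calcium that enters through L-type and P/Q-type channels triggers the release of insulin. Voltage-gated and calcium-activated potassium channels end each action potential, while two-pore and inward rectifier channels pass potassium near the resting potential and so set how easily the cell fires. Accessory subunits do not conduct by themselves: the calcium channel β and α2δ subunits carry pores to the membrane, the KChIP and Kvβ proteins bind voltage-gated potassium channels, and the β subunits of the large-conductance channel change its response to calcium.

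Per length of exon, the most abundant channel gene of vehicle islets was Kcnk16, the two-pore channel TALK-1 of islet cells, at 51.7 ± 3.77 CPM per kb (SD, n = 3). The order then ran to Kcnmb2, a β subunit of the large-conductance calcium-activated channel (36.2 ± 1.63), the two-pore channel gene Kcnk1 (23.8 ± 1.27) and Kcnip1, a KChIP protein (15.7 ± 0.729). These 4 stood apart from each other by more than their SDs. Kcnh6 (13.8 ± 0.433), Cacnb3 (12.7 ± 0.228) and Kcnh2 (10.4 ± 0.213) followed, also apart from their neighbours by more than their SDs. The next 5 were not separated from each other: Kcnab3, Kcnk3, Cacna2d1, Kcnj12 and Kcnk12 lay between 5.17 and 5.76 CPM per kb, with SDs of up to 0.991. With cytokines Kcnip1 led the order at 21.5 ± 1.34 CPM per kb, before Kcnk1 (12.5 ± 0.404) and Kcnmb2 (9.98 ± 0.77), and Kcnk16 stood at rank 13 with 1.89 ± 0.213 CPM per kb.

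**Figure D1:**
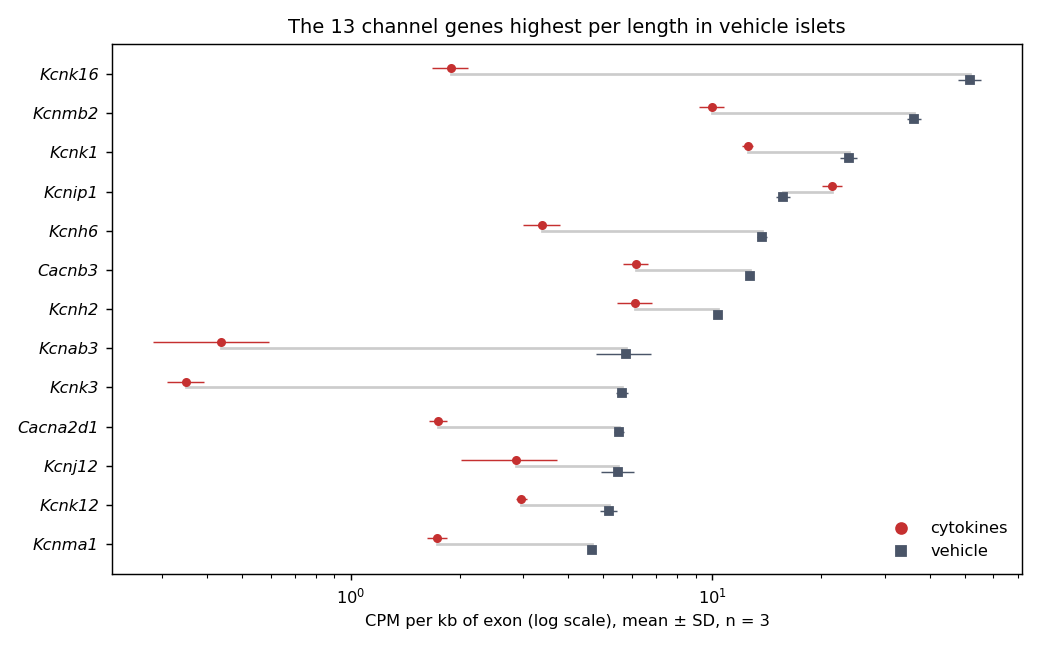
Level of the 13 channel genes with the highest mean per exon length in vehicle islets, as CPM per kb of exon on a log axis; red circles are cytokine islets and grey squares vehicle islets, as mean ± SD of 3 libraries. Kcnk16 is at 1.89 with cytokines and 51.7 with vehicle, and Kcnip1 is the gene of these 13 that lies to the right of its vehicle value.

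Cytokines against vehicle asked how an inflammatory environment changes these transcripts. Of the 79 channel genes, 47 were lower and 7 higher with cytokines, and 25 were not called (edgeR, adjusted p at most 0.05). The share called lower was 59.5%, against 37.2% of all genes tested, and the share called higher was 8.86%, against 35.3% of all genes. The median log2 fold change was -0.995 over the channel genes and -0.02 over all genes. Summed over the 79 genes, the level was 548, 560 and 548 CPM in the 3 cytokine libraries and 1086, 1079 and 1104 CPM in the 3 vehicle libraries, with no overlap. Every class with more than 1 gene had at least 1 member called lower. Calls followed counts: all 12 members with a mean of 500 or more counts per library were called (10 lower, 2 higher), with a median SE of 0.083, whereas 18 of the 34 members below 50 counts were called, with a median SE of 0.55. A low-count gene without a call is therefore not shown to be unaltered.

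**Figure D2:**
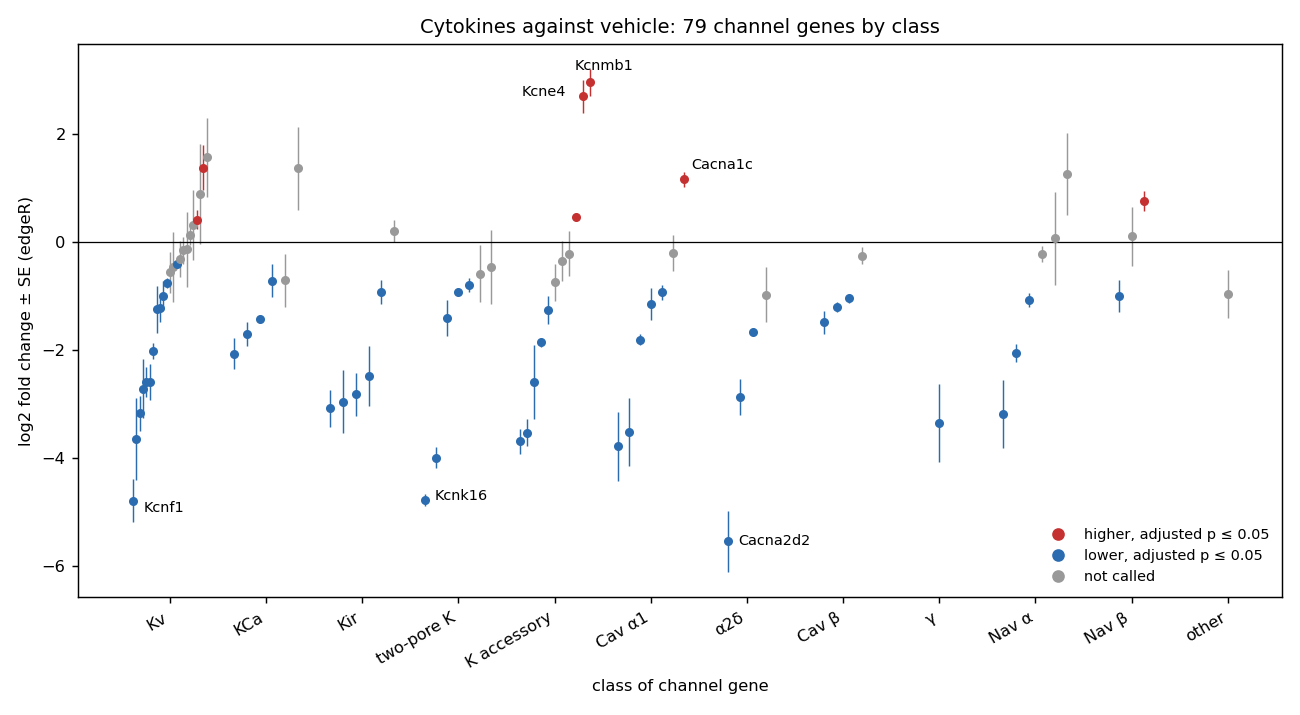
Log2 fold change of each of the 79 channel genes with cytokines against vehicle (vertical axis, edgeR estimate ± SE), grouped by class and ordered by value within a class. Red points were called higher, blue points lower and grey points were not called; most classes lie below 0, and Kcnmb1, Kcne4 and Cacna1c are the labelled rises.

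Among the two-pore channels, which carry background potassium current, 5 of 7 fell and 0 rose. Kcnk16 (chromosome 14, 20261376 to 20269199, GRCm38) had 4.52, 3.97 and 4.99 CPM in cytokine islets, against 122, 114 and 132 CPM in vehicle islets. The groups were far apart, and the fitted level with cytokines was 3.66% of that with vehicle (log2 fold change -4.77, SE 0.11, edgeR adjusted p = 2.2e-16). Kcnk3, which encodes the acid-sensitive channel TASK-1, had 1.45, 1.52 and 1.21 CPM in cytokine islets, against 22.1, 23.4 and 21.7 CPM in vehicle islets, again without overlap (-4.00, SE 0.20, adjusted p = 7.4e-12). Kcnk1 (TWIK-1) fell less, to 28.4, 28.6 and 27.0 CPM in cytokine islets, against 56.6, 51.9 and 51.5 CPM in vehicle islets (-0.93, SE 0.066, adjusted p = 9.7e-10). The THIK genes Kcnk12 (-0.80) and Kcnk13 (-1.41) also fell, while Kcnk5 (-0.47, adjusted p = 0.56) and Kcnk10 (-0.59, adjusted p = 0.33) were not called. As a class the two-pore genes summed to between 41.3 and 45.6 CPM in cytokine libraries and between 208 and 221 CPM in vehicle libraries.

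The pore subunits of voltage-gated potassium channels divided. Of 23 genes, 12 fell, 2 rose and 9 were not called. Kcnb2, a delayed rectifier of the Kv2 family, was not called (log2 fold change 0.13, edgeR adjusted p = 0.57). The electrically silent subunits, which conduct only when joined to a Kv2 subunit, went in opposite directions. Kcnf1 had 0.161, 0.343 and 0.101 CPM in cytokine islets, against 5.52, 5.14 and 6.40 CPM in vehicle islets (-4.79, SE 0.40, adjusted p = 8.5e-09), and Kcng3 had 1.53, 0.981 and 0.957 CPM, against 0.594, 0.420 and 0.322 CPM (1.37, SE 0.41, adjusted p = 0.0068). Neither pair of groups overlapped, although Kcng3 rests on few counts.

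In the ether-à-go-go group of the same class, Kcnh6 and Kcnh2 encode ERG channels, which open as the membrane repolarises. Kcnh6 had 13.02, 10.4 and 12.6 CPM in cytokine islets, against 47.1, 49.8 and 49.6 CPM in vehicle islets (log2 fold change -2.02, SE 0.15, edgeR adjusted p = 2.5e-08). For Kcnh2 the fall was smaller, to 29.95, 32.9 and 26.2 CPM in cytokine islets, against 50.6, 49.1 and 51.1 CPM in vehicle islets (-0.76, SE 0.097, adjusted p = 1.9e-06). The ELK channel gene Kcnh3 fell by 2.59 on the log2 scale and the EAG gene Kcnh5 by 3.64, with at most 1.15 CPM of Kcnh5 in any library. Kcnh1, the other EAG gene, was higher by 0.41 (SE 0.17, adjusted p = 0.045): it had 25.0, 33.1 and 25.0 CPM in cytokine islets and 24.5, 22.9 and 15.0 CPM in vehicle islets. Those libraries nearly touch, and the call was lost in 12 of the 24 alternative settings. Of the A-type and delayed rectifier genes outside these groups, Kcnd1 (-2.60), Kcna2 (-3.18), Kcna5 (-2.72) and Kcnc4 (-1.25) fell. Genes without a call included Kcna1 (-0.14), Kcna4 (1.56, adjusted p = 0.066), Kcna6 (-0.47), Kcnc2 (-0.33), Kcnh8 (-0.16) and Kcnq5 (0.88).

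The large-conductance calcium-activated (BK) channel joins a pore, encoded by Kcnma1, with β subunits that set its gating. Kcnma1 had 29.1, 31.5 and 27.8 CPM in cytokine islets, against 78.1, 80.1 and 79.1 CPM in vehicle islets, 37.3% of the vehicle level in the fit (log2 fold change -1.42, SE 0.068, edgeR adjusted p = 5.1e-12). Kcnmb2, the inactivating β2 subunit, had 28.6, 31.8 and 33.3 CPM in cytokine islets, against 115, 107 and 117 CPM in vehicle islets (-1.86, SE 0.085, adjusted p = 2.7e-12). Both groups were tight and far apart for each gene. Kcnmb1, the β1 subunit best known from smooth muscle, had 12.3, 12.8 and 13.5 CPM in cytokine islets, against 1.61, 1.73 and 1.66 CPM in vehicle islets, a 7.69-fold rise and the largest of any channel gene called higher (2.94, SE 0.25, adjusted p = 1.9e-08). Per length, Kcnmb1 stood at 0.321, 0.301 and 0.301 of the Kcnmb2 level in the cytokine libraries and at 0.0105, 0.0120 and 0.0106 in the vehicle libraries. This ratio was chosen after its values were seen and carries no test. Kcnmb2 was the more abundant of the BK β subunit transcripts in every library.

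Small-conductance calcium-activated channels follow calcium without sensing voltage. Kcnn3 (SK3) fell to 1.57, 1.08 and 1.31 CPM in cytokine islets, against 5.01, 4.48 and 7.32 CPM in vehicle islets (log2 fold change -2.07, SE 0.28, edgeR adjusted p = 4.2e-06). Kcnn1 also fell (-0.73, adjusted p = 0.042), while Kcnn2 (-0.72, adjusted p = 0.19) was not called. The intermediate-conductance gene Kcnn4 varied too much for a call, with 1.57, 8.83 and 3.33 CPM in cytokine islets and 2.46, 1.40 and 1.43 CPM in vehicle islets. Kcnu1, a member of the BK family known from mouse sperm, fell by 1.71.

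Other accessory subunits of potassium channels held the remaining strong contrasts. Kcne4, a single-span subunit that dampens some voltage-gated potassium channels, had 3.67, 5.59 and 4.84 CPM in cytokine islets, against 0.467, 0.981 and 0.737 CPM in vehicle islets (log2 fold change 2.69, SE 0.31, edgeR adjusted p = 4.4e-07). Genes of the KChIP proteins, which bind calcium and join Kv4 channels, split: Kcnip1 rose to 128, 128 and 143 CPM in cytokine islets, against 101, 92.3 and 99.3 CPM in vehicle islets (0.45, SE 0.073, adjusted p = 2.9e-05). Kcnip3, whose product is also known as the transcriptional repressor DREAM, had 0.685, 0.589 and 1.16 CPM in cytokine islets, against 8.95, 10.4 and 8.65 CPM in vehicle islets (-3.53, SE 0.25, adjusted p = 1.0e-09). Neither pair of groups overlapped. Kcnip2 fell (-2.60) and Kcnip4 was not called (-0.75, adjusted p = 0.071). Of the Kvβ genes, Kcnab3 fell to 1.73, 1.18 and 0.856 CPM in cytokine islets, against 15.4, 14.4 and 19.7 CPM in vehicle islets (-3.69, SE 0.23, adjusted p = 2.6e-10), Kcnab2 fell (-1.27) and Kcnab1 was not called (-0.36, adjusted p = 0.41). Kcnmb1 lies within the body of Kcnip1 on chromosome 11, on the opposite strand (33963013 to 33973641 within 33629339 to 33993152, GRCm38), and the library kit did not keep the strand. The exons of both share 0 bases, but reads of unspliced Kcnip1 RNA across the Kcnmb1 exons would count for Kcnmb1. Kcnip1 rose 1.37-fold and Kcnmb1 7.69-fold, and the part of such reads was not tested.

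**Figure D3:**
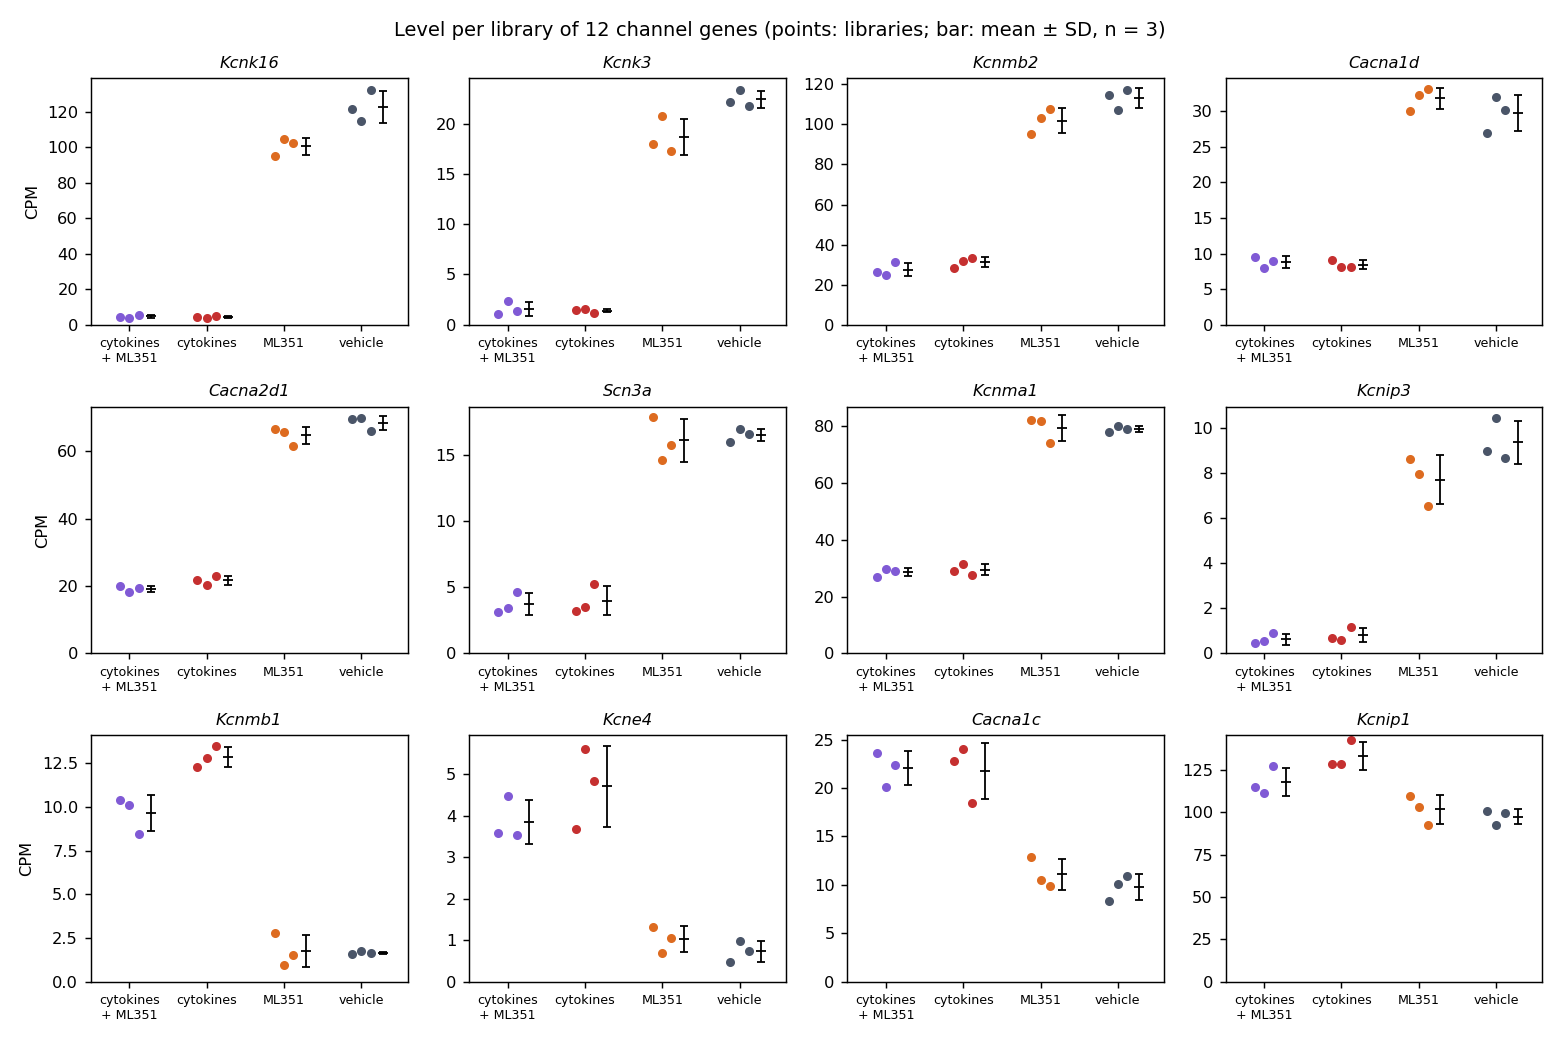
CPM of 12 channel genes in each library (points), with the mean ± SD of 3 libraries beside them, for the combination, cytokines, ML351 and vehicle. The 8 genes that fell are lower in both cytokine groups than in ML351 or vehicle islets; Kcnmb1, Kcne4, Cacna1c and Kcnip1 are higher there than in ML351 or vehicle islets.

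Inward rectifiers pass potassium best below the firing threshold. Of the 6 genes measured, 5 fell, and Kcnj6, a G-protein-gated channel of the β cell, did not pass the test (3.51, 2.85 and 3.22 CPM in cytokine islets, 2.97, 2.52 and 2.85 CPM in vehicle islets; log2 fold change 0.20, edgeR adjusted p = 0.40). Kcnj3, its usual partner, fell by 2.96, at 1.99 CPM or less in every library, and shares 31.1% of its exon bases with another annotated gene. Kcnj8, known from pericytes and vascular smooth muscle, had 0.323, 0.245 and 0.605 CPM in cytokine islets, against 2.93, 2.85 and 4.19 CPM in vehicle islets (-3.08, SE 0.34, adjusted p = 3.5e-07). Abcc9, which encodes its regulatory partner and is not one of the 79 genes, fell by 2.89. The classical inward rectifiers Kcnj2 (-2.82), Kcnj4 (-2.48) and Kcnj12 (-0.93) fell too.

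The pores of the L-type calcium channel moved in opposite directions. Cacna1d (chromosome 14, 30039939 to 30491455) had 9.15, 8.09 and 8.11 CPM in cytokine islets, against 26.9, 32.0 and 30.2 CPM in vehicle islets, 28.5% of the vehicle level in the fit (log2 fold change -1.81, SE 0.10, edgeR adjusted p = 3.3e-11). Cacna1c (chromosome 6, 118587240 to 119196418) had 22.7, 24.0 and 18.5 CPM in cytokine islets, against 8.36, 10.1 and 10.96 CPM in vehicle islets, a 2.22-fold rise (1.15, SE 0.13, adjusted p = 4.6e-07). For both genes every cytokine library lay outside the range of the vehicle libraries. Per length, Cacna1c stood at 1.48, 1.77 and 1.36 of the Cacna1d level in the cytokine libraries and at 0.185, 0.188 and 0.216 in the vehicle libraries, so the order of these L-type transcripts was the reverse with cytokines. That ratio, too, was picked after its values were seen and has no test.

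Other calcium channel pores fell or were not called. The P/Q-type gene Cacna1a had 7.01, 6.23 and 7.66 CPM in cytokine islets, against 11.2, 15.2 and 13.6 CPM in vehicle islets (log2 fold change -0.94, SE 0.14, edgeR adjusted p = 1.2e-05). Both T-type genes, whose channels open near the resting potential, fell: Cacna1h to 1.51 ± 0.504 CPM with cytokines, against 3.34 ± 0.314 CPM with vehicle (-1.15), and Cacna1g to 0.1003 ± 0.0877 CPM, against 1.54 ± 0.425 CPM (-3.79). The N-type gene Cacna1b was not called (-0.21, adjusted p = 0.57), and Cacna1f, known from the retina, fell (-3.51) with under 1 CPM in every library. Summed over the 7 pore genes the level was 41.4, 41.6 and 37.4 CPM with cytokines and 54.0, 64.1 and 61.5 CPM with vehicle, a sum that includes the rise of Cacna1c.

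Among the auxiliary calcium channel subunits 7 of 9 fell and 0 rose. Cacna2d1, the most abundant α2δ gene, had 21.7, 20.4 and 22.9 CPM in cytokine islets, against 69.6, 69.9 and 66.2 CPM in vehicle islets (log2 fold change -1.66, SE 0.067, edgeR adjusted p = 5.5e-13). Cacna2d2 was listed at 0, 0.0981 and 0.0504 CPM in cytokine islets, against 2.80, 2.06 and 2.39 CPM in vehicle islets (-5.54, SE 0.57, adjusted p = 1.3e-07). Its cytokine libraries hold almost no reads, so the fitted size of this fall is loose. Cacna2d4 fell by 2.87, and Cacna2d3 was not called (-0.98, adjusted p = 0.095). The β subunit genes Cacnb2 (14.3 ± 0.551 CPM with cytokines, 33.0 ± 3.73 CPM with vehicle; -1.21), Cacnb3 (24.7 ± 2.02 and 51.0 ± 0.912 CPM; -1.04) and Cacnb4 (-1.49) fell together, and Cacnb1 was not called (-0.26, adjusted p = 0.14). Cacng4, the only γ subunit gene counted, fell by 3.36, to 0.101 ± 0.101 CPM in cytokine islets, against 1.14 ± 0.148 CPM in vehicle islets.

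Of the 6 sodium channel pore genes 3 fell and 0 rose. The channels of Scn3a and Scn9a carry most of the sodium current of mouse islet cells. Scn3a (Nav1.3) had 3.23, 3.48 and 5.24 CPM in cytokine islets, against 16.0, 17.0 and 16.6 CPM in vehicle islets (log2 fold change -2.06, SE 0.17, edgeR adjusted p = 8.2e-09). Scn9a (Nav1.7) had 10.7, 8.78 and 8.41 CPM in cytokine islets, against 18.5, 20.6 and 19.7 CPM in vehicle islets (-1.08, SE 0.13, adjusted p = 9.8e-07). Scn7a, a sodium-sensing relative, fell by 3.19. Scn8a was not called (-0.23, adjusted p = 0.16), nor was Scn2a1, which had under 1 CPM in every library. Of the β subunit genes, Scn3b fell (-1.01, adjusted p = 0.0054), and Scn2b was not called (0.10, adjusted p = 0.87).

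Markers of the islet cell types moved in the same comparison. All 7 α cell markers were lower with cytokines, with summed levels of 779 to 1421 CPM in cytokine libraries and 35064 to 39235 CPM in vehicle libraries, and so were 5 of 5 δ markers (99.9 to 145 CPM, against 1441 to 1507 CPM) and 3 of 3 PP markers (903 to 1523 CPM, against 10670 to 12081 CPM). Of 10 β cell markers, 8 were lower, while Ins2 and Iapp were not called, and the sum, which is mostly insulin RNA, was 290239 to 343103 CPM in cytokine libraries and 333247 to 379933 CPM in vehicle libraries. Endothelial markers (7 of 7 lower, 14.5 to 22.5 CPM, against 81.9 to 98.1 CPM), stellate and pericyte markers (7 of 7 lower, 31.3 to 50.4 CPM, against 106 to 335 CPM) and Schwann and neural markers (3 of 5 lower, 57.4 to 62.9 CPM, against 108 to 129 CPM) moved the same way. Macrophage markers (4 of 7 higher, 235 to 259 CPM, against 118 to 127 CPM) and ductal markers (4 of 6 higher, 1955 to 2467 CPM, against 834 to 998 CPM) moved the other way. Among the markers, Irx1 and Gfap were read at 0 in at least 1 library. The part of these shifts in the fall or rise of any channel gene was not tested.

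Acinar markers differed between libraries of a group, and 4 channel genes without a call did so too. The acinar sum was 26.0, 485 and 707 CPM in the cytokine libraries and 497, 313 and 139 CPM in the vehicle libraries, with 0 of 9 markers called. In the cytokine library with the lowest acinar sum, Kcnq1 had 0.161 CPM, Kcnk5 0.645 CPM, Kcnn4 1.57 CPM and Kcne3 0.685 CPM. In the library with 485 CPM of acinar markers they had 2.80, 4.02, 8.83 and 2.55 CPM, and in the library with 707 CPM they had 1.06, 1.11, 3.33 and 1.81 CPM. In the same order of libraries the ductal marker Krt19 had 4.84, 58.97 and 15.9 CPM. Krt7 (633, 689 and 673 CPM) and Epcam (294, 325 and 320 CPM) differed little between these libraries. The ductal markers Spp1 (806, 777 and 1273 CPM), Cldn4 (216, 226 and 182 CPM) and Sox9 (0.524, 1.23 and 2.77 CPM) ran in other orders. The part of acinar or ductal RNA in the spread of these 4 genes was not tested. Kcnq1, a delayed rectifier also found in exocrine cells, had a log2 fold change of 0.30 (edgeR adjusted p = 0.68), of a sign that depended on the method. Kcnq1ot1, which is transcribed within Kcnq1 from the other strand, was not called either (-0.97, adjusted p = 0.068).

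Genes of excitability outside the 79 gave a background within the same physiology. A list of 60 genes covered pumps, exchangers, background cation, TRP, HCN, chloride and purinergic channels and channel regulators. It also held the KATP channel regulatory subunits Abcc8 and Abcc9, and 48 of the 60 were measured. Of these 48, 29 were lower, 9 higher and 10 not called with cytokines, with a median log2 fold change of -1.08. Of all genes, 37.2% were lower and 35.3% higher, with a median of -0.02. The sodium leak channel gene Nalcn fell by 3.10 and its partners Unc79 and Unc80 by 1.58 and 2.09. These 3 genes of the sodium leak channel complex fell together. Dpp10, an auxiliary subunit of Kv4 channels, fell by 4.31, Fgf14, a sodium channel regulator, by 3.32, and the sodium pump subunit Atp1b2 by 3.61. Gem, a small GTPase that inhibits voltage-gated calcium channels, rose to 35.2, 34.3 and 32.5 CPM in cytokine islets, against 5.98, 5.75 and 6.40 CPM in vehicle islets (2.49, SE 0.095, edgeR adjusted p = 2.3e-13). The pacemaker channel gene Hcn3 rose by 0.99 (adjusted p = 1.1e-08) and the purinergic receptor gene P2rx7 by 1.95 (adjusted p = 0.0016).

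The combination against ML351 asked the same of cytokines in the presence of the inhibitor, and it uses libraries that the comparison of cytokines with vehicle does not. In it 50 of the 79 channel genes were lower (63.3%, against 36.4% of all genes) and 8 higher (10.1%, against 35.2% of all genes), with a median log2 fold change of -0.98. All 47 genes that fell with cytokines alone fell here, all 7 that rose also rose here, and 0 were called in opposite directions. Of all genes, 89.1% of those lower and 91.0% of those higher with cytokines alone kept that call here. Among all 14089 genes, 3 were called in opposite directions. The sign of the change was the same for 73 of the 79 genes (92.4%), as it was for 92.6% of all genes. Across the 79 genes, which are not independent replicates, the log2 fold changes of the 2 comparisons had a Pearson r of 0.946 and a Spearman rho of 0.934. Across all genes the values were 0.948 and 0.954. Genes called here and not with cytokines alone included Scn8a (-0.56, adjusted p = 0.0021), Kcnc2 (-0.91) and Kcnq5 (2.05, from at most 0.985 CPM in any library). A difference in their response between the comparisons is tested by the interaction, which called none of them. Acinar markers stood higher in this comparison (8 of 9 called), with sums of 952, 1162 and 790 CPM in combination libraries and 163, 193 and 84.6 CPM in ML351 libraries, and their part in these calls was not tested.

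**Figure D4:**
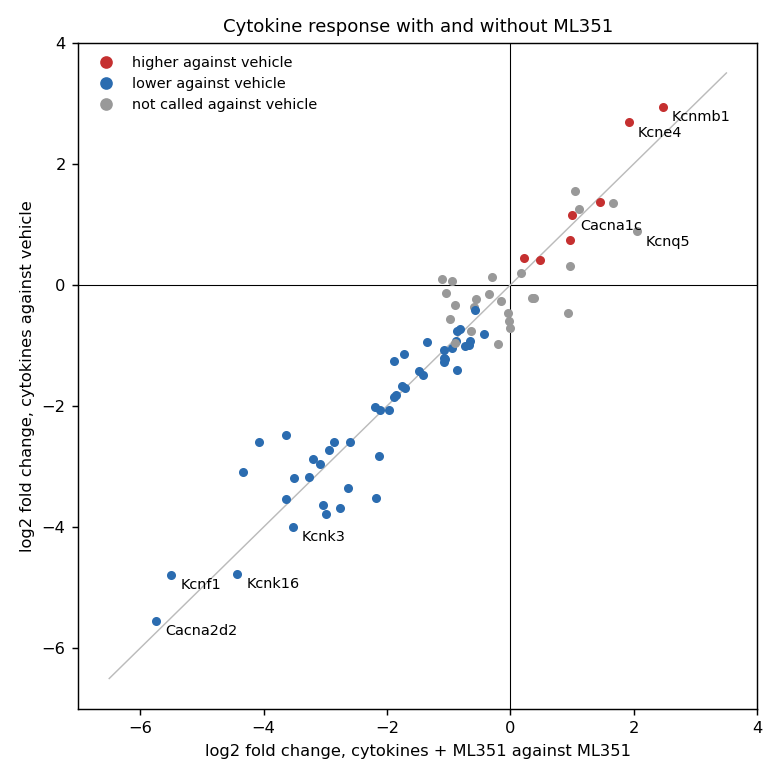
Log2 fold change of the 79 channel genes with cytokines against vehicle (vertical axis) and with the combination against ML351 (horizontal axis), from edgeR; the grey line marks equal values and colours give the call against vehicle. The genes lie along the line from Cacna2d2 and Kcnf1 at the lower left to Kcnmb1 and Kcne4 at the upper right.

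Kcnk16, Kcnmb1, Cacna1c and Cacna1d were called in this comparison in the same direction as with cytokines against vehicle. Kcnk16 had 4.40, 4.06 and 5.65 CPM in combination islets, against 94.9, 104 and 102 CPM in ML351 islets (log2 fold change -4.42, SE 0.11, edgeR adjusted p = 6.0e-16). Kcnmb1 had 10.4, 10.1 and 8.45 CPM in combination islets, against 2.76, 0.984 and 1.54 CPM in ML351 islets (2.47, SE 0.24, adjusted p = 1.4e-07). Cacna1c had 23.7, 20.1 and 22.4 CPM in combination islets, against 12.9, 10.5 and 9.88 CPM in ML351 islets (0.99, adjusted p = 2.5e-06), and Cacna1d 9.58, 7.99 and 8.92 CPM, against 30.1, 32.2 and 33.1 CPM (-1.85, adjusted p = 2.6e-11). No group overlapped its counterpart in these 4 genes. Set against cytokine islets, which had 12.3, 12.8 and 13.5 CPM of Kcnmb1, the combination islets were without overlap on the low side, a difference that was not called (log2 fold change -0.41, SE 0.21, edgeR adjusted p = 0.37). Between combination and cytokine islets, 13.9% of the channel genes and 20.4% of all genes had groups without overlap. Summed over the 79 genes the level was 506, 520 and 543 CPM in combination libraries and 1038, 1045 and 1003 CPM in ML351 libraries.

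No channel gene was called for ML351 alone. Against vehicle, ML351 alone gave 0 calls among the 79 genes (0.0355% of all genes were called, edgeR), with 6 genes at an unadjusted p under 0.05 (7.59%, against 8.98% of all genes); DESeq2 called 1, Kcnk16, giving no adjusted p to 64, and limma-voom called 0. Kcnk16 had 94.9, 104 and 102 CPM in ML351 islets and 122, 114 and 132 CPM in vehicle islets, without overlap (log2 fold change -0.29, SE 0.081, adjusted p = 0.24). Next by p was Kcnab3 (-0.62, adjusted p = 0.27), whose groups did not overlap either. In this comparison, 16.5% of the channel genes and 15.9% of all genes had groups without overlap. A 95% interval of the fold change lay within 2-fold either way for 45 of the 79 genes, and the intervals of the others reached past 2-fold.

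On the background of cytokines, the combination against cytokines alone also gave 0 calls among the 79 genes (1.43% of all genes), with 10 genes at an unadjusted p under 0.05 (12.7%, against 15.7% of all genes). DESeq2, which gave no adjusted p to 17 of the 79, and limma-voom also called 0. Among the smallest p were those of Kcnj8 (log2 fold change -1.56, SE 0.49, edgeR adjusted p = 0.12), with 0.0977, 0.177 and 0.104 CPM in combination islets, against 0.323, 0.245 and 0.605 CPM in cytokine islets, and of Kcnh2 (-0.27, adjusted p = 0.19). The 95% interval lay within 2-fold for 39 of the 79 genes. Averaged over both backgrounds the inhibitor gave 0 calls (1.55% of all genes), with 11 genes at an unadjusted p under 0.05 (13.9%, against 16.9% of all genes); DESeq2 called 2, giving no adjusted p to 17, and limma-voom called 0. Endothelial markers, 3 of 7 lower, summed to 8.30 to 12.9 CPM in combination libraries and 14.5 to 22.5 CPM in cytokine libraries. Stellate and pericyte markers, 0 of 7 lower, summed to 22.4, 99.3 and 19.4 CPM in combination libraries. In cytokine libraries the stellate and pericyte sums were 32.5, 31.3 and 50.4 CPM. The part of either cell type in the value of Kcnj8 was not tested. Of the 48 other excitability genes, Gem (0.38, adjusted p = 0.035) and Atp2b1 (0.30, adjusted p = 0.048) were higher with the combination than with cytokines.

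Whether ML351 altered the cytokine response was tested as an interaction, which called 0 of the 79 genes (0.0071% of all genes), with 4 at an unadjusted p under 0.05 (5.06%, against 8.23% of all genes). DESeq2 called 0 and gave no adjusted p to 71, and limma-voom called 0. Kcnab3 came first: it had 1.42, 1.37 and 1.97 CPM in combination islets and 1.73, 1.18 and 0.856 CPM in cytokine islets, and 10.3, 12.9 and 8.98 CPM in ML351 islets and 15.4, 14.4 and 19.7 CPM in vehicle islets (interaction 0.93 on the log2 scale, SE 0.32, edgeR adjusted p = 0.45). Kcnip1 (-0.24, adjusted p = 0.58) and Kcnk16 (0.35, adjusted p = 0.58) were next.

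The promoters of these genes were read for motifs of the factors that the cytokines are known to activate. In RefSeq windows from 250 bases before to 50 after each start (GRCm38.p6, both strands), the gamma-activated site TTCNNNGAA, known from interferon-γ-induced genes, occurred in 2 of 10 promoters of channel genes that rose with cytokines (20%; 6 of the 7 genes have an entry), in 3 of 42 promoters of those that fell (7.14%; 32 of the 47 genes) and in 8.30% of all 32851 promoters. The NF-κB motif GGGANNTTC occurred in 0 of 10 and 1 of 42 promoters and in 3.94% of all, and the interferon-response motif GAAANTGAA in 0 of 10 and 0 of 42 and in 2.21% of all. Of the 32 promoters of channel genes without a call (19 of the 25 genes have an entry), 4 held the gamma-activated site (12.5%), 2 the interferon-response motif (6.25%) and 0 the NF-κB motif. The promoters of rising genes with the gamma-activated site were 1 of Cacna1c and 1 of Kcnip1. The 150 bases before the start are printed for the BK subunit genes that moved in opposite directions and for Kcnk16, the gene with the smallest p. Capitals mark a match to TTCNNNGAA, which these windows hold only in Kcnmb2, a gene that fell, at 25 to 17 bases before its start, and each window reads 5′ to 3′ on the strand of its gene (Kcnmb1 chr11:33962863-33963012, plus; Kcnmb2 chr3:31902553-31902702, plus; Kcnk16 chr14:20269270-20269419, minus).
Kcnmb1: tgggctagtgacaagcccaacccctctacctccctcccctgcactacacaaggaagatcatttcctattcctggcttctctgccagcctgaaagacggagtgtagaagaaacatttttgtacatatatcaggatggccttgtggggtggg
Kcnmb2: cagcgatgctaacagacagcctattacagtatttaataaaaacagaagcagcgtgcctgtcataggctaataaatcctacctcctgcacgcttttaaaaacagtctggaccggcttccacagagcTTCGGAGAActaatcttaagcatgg
Kcnk16: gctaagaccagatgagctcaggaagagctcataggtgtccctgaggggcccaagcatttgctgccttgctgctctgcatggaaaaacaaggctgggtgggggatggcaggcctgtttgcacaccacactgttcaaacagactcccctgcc
A match is a run of letters and not a shown binding site, and a window without one says nothing of factors that bind elsewhere.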

How the data were processed

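RNA was sequenced from 12 islet libraries. Per the labels' protocols a SMARTSeq v4 kit was used and the cDNA was not stranded. The authors deposited 1 table of whole-number read counts per gene symbol, not normalized; STAR, featureCounts, Subread, FastQC, DESeq2 and the build mm10 are named, per the submitters' processing notes, with no role or version. Groups were read from the agent named for each sample. Whether replicates were separate animals or cultures is not in the labels, so a p-value here speaks of the spread between these samples alone, possibly a technical one; no pair of libraries of the same group matched within sampling noise.

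From the counts, changes were tested with edgeR 4.0.16 in R 4.3.3 (robust quasi-likelihood F-test, TMM factors, filterByExpr by group, one fit of the 12 libraries with 1 mean for each group). P-values were adjusted by Benjamini-Hochberg over 14089 genes. SE was obtained from the log2 fold change and F (size over root F), and 95% intervals of the ML351 comparisons use 8 degrees of freedom. Self-tests on simulated counts were run. Gene positions and exon lengths come from GENCODE M21 on GRCm38, the assembly of mm10, which held 78 of the 79 genes by symbol and 1 by a RefSeq synonym. Of these, 11 share over 5% of their exon bases with another annotated gene, Kcna6 and Kcnj3 over 30%, so their counts are less certain. Promoters are from RefSeq.

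The channel genes and gene lists were chosen with earlier results of these data known. Named by rule were, for cytokines against vehicle, the 10 largest rises and falls that were called, averaged a log2 CPM of 1 or more and did not overlap, and the smallest p of each class; for other comparisons up to 10 called genes, or the 3 smallest p where fewer than 3 were called; and a set of channels known from β cells. Some genes the rule takes are not reported here by name. Members outside the rule were named after their values were seen. Alternatives were other scalings (RLE, upper quartile, library totals, totals without 5 hormone genes), filters, DESeq2 1.42.0, limma-voom (limma 3.58.1), a non-robust fit, fewer libraries and a replicate block.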

Additional observations from a re-analysis of the deposited data

How the results depend on the processing

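With cytokines against vehicle, 6 to 9 channel genes were called higher and 44 to 51 lower in every alternative run. With the combination against ML351, 5 were called higher under upper quartile scaling and under library totals, and 5 to 10 when 1 library was left out (5 without combination replicate 4). ML351 against vehicle gave 1 lower call with DESeq2. The averaged ML351 effect gave 1 higher call under library totals (Kcnk1) and 2 lower calls with DESeq2, and 0 to 1 in either direction when 1 library was left out. For Kcnq1 with cytokines against vehicle the sign was reversed with limma-voom (-0.52), with the replicate block (-0.27) and without cytokine replicate 3 (-0.86), compared with the reported 0.30, and ran from -0.86 to 0.87 when 1 library was left out; the cause was not tested. Kcnh1 lost its call in 12 settings, with adjusted p from 0.012 to 0.19 over all. Of 1406 comparisons of 59 values, 1381 kept direction and call. Upper quartile scaling moved the median of all genes to -0.15 with cytokines against vehicle, and the channel genes' median to -1.12. Samples with the same replicate number did not stand out across groups (same-number deviations correlated at -0.38 to 0.20, others at -0.30 to 0.47). These are deviations from means of 3 libraries, so a shared source or day of such samples is not excluded. With the replicate block 6 channel genes were higher and 46 lower with cytokines against vehicle. Depth limits the genes below 50 counts per library, and 3 libraries a group limit all of them.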
